A study of Homo sapiens with 6 samples.

Results

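The genes described are 10 amino acid transporters around *SLC7A5*, out of 61228 genes in the deposited RNA-seq table. They were chosen from earlier results of these same libraries, as members of the SLC7 family, their partner *SLC3A2*, and neutral amino acid carriers that work beside them. *SLC3A2*, *SLC7A5*, *SLC7A7* and *SLC7A11* were also among the top changed genes displayed by the study. The difference between treatments is therefore given for these 10 genes as a description, with no test. The libraries came from wild-type HBE cells, an immortalized human bronchial epithelial line called HBECs in the study. One group was treated for 24 h with CRE, an extract of cockroach allergen, and the other with CRE and VAF347. VAF347 is a small-molecule agonist of the aryl hydrocarbon receptor (AhR). In this study's HBEC experiments it was used at 20 μM and given 1 h before CRE. Each group had 3 libraries, and all 6 received CRE, so the effect of CRE itself is not shown by this comparison, and cells given VAF347 alone are not analysed here. The CRE dose is not stated for the RNA-seq, and the labels do not say whether the replicates were separate cultures, so the errors below may measure technical spread only.

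Amino acids enter cells through families of membrane carriers. Several SLC7 proteins are light chains, which carry the substrate but reach the cell surface only when joined to the heavy chain *SLC3A2* (CD98). *SLC7A5* exchanges large neutral amino acids such as leucine and tryptophan for intracellular glutamine, *SLC7A11* takes up cystine in exchange for glutamate, and carriers such as *SLC1A5* and *SLC38A2* bring in glutamine. In airway epithelium, cystine supplies glutathione synthesis and leucine supports signalling through mTORC1, while tryptophan is a source of natural AhR ligands.

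The libraries held 8873160 to 10750283 estimated counts. After low counts were removed, 15373 genes entered the quasi-likelihood test of edgeR, and a gene was called at a Benjamini-Hochberg adjusted p under 0.05 with an absolute log2 fold change over 0.5. By this rule 0.501% of the genes tested were higher with CRE + VAF347 and 1.71% were lower. The AhR targets *CYP1A1*, *CYP1B1*, *AHRR* and *TIPARP* were all higher, by log2 fold changes of 2.16 to 6.20, which checks the labels of the treated libraries. CRE replicate 3 stood apart from the other CRE libraries, as its mean chi-square per gene against them was 8.33 and 8.62, where CRE replicates 1 and 2 gave 2.39. The summed TPM of 7 epithelial markers was 3310 to 4106 with CRE and 3332 to 3435 with CRE + VAF347, although the basal-cell marker *TP63* had at most 3 counts in every library. The summed TPM of 4 immune markers was 22.4 to 25.2 with CRE and 14.2 to 20.2 with CRE + VAF347, with *PTPRC* and *CD3E* at most 3 counts in every library. That of 3 endothelial markers was 7.31 to 7.93 and 3.95 to 4.67, with *PECAM1* at most 3 counts, and that of 4 fibroblast markers was 19.1 to 20.5 and 14.8 to 18.9, with *DCN* and *LUM* at most 3 counts. The part of these shifts in the values below was not tested. In bulk RNA, fewer cells that express a gene and less of its RNA per cell cannot be told apart.

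All 10 transporters passed the filter on low counts. *SLC3A2*, *SLC7A5* and *SLC7A11* had 2.18 to 2.78 times the level of the CRE group in the CRE + VAF347 group, *SLC7A7* was 1.80-fold lower, and the other 6 had log2 fold changes between -0.38 and 0.12. By the calling rule 3 of the 10 were higher and 1 was lower, beside the 0.501% and 1.71% of all genes, and nothing is read from these counts because the same contrast chose the genes. The lowest CRE + VAF347 value exceeded the highest CRE value, in counts per 1000000 counts (CPM, with TMM scaling), for 3 of the 10 genes, and the reverse held for 4. These patterns were seen in 12.5% and 14.8% of all genes tested. The median log2 fold change was 0.09 over the 10 genes and 0.01 over all genes tested. Without CRE replicate 3 the log2 fold changes were 1.09 for *SLC3A2*, 1.57 for *SLC7A5*, 1.27 for *SLC7A11* and -0.78 for *SLC7A7*, and the other 6 lay between -0.37 and 0.25.

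**Figure D1:**
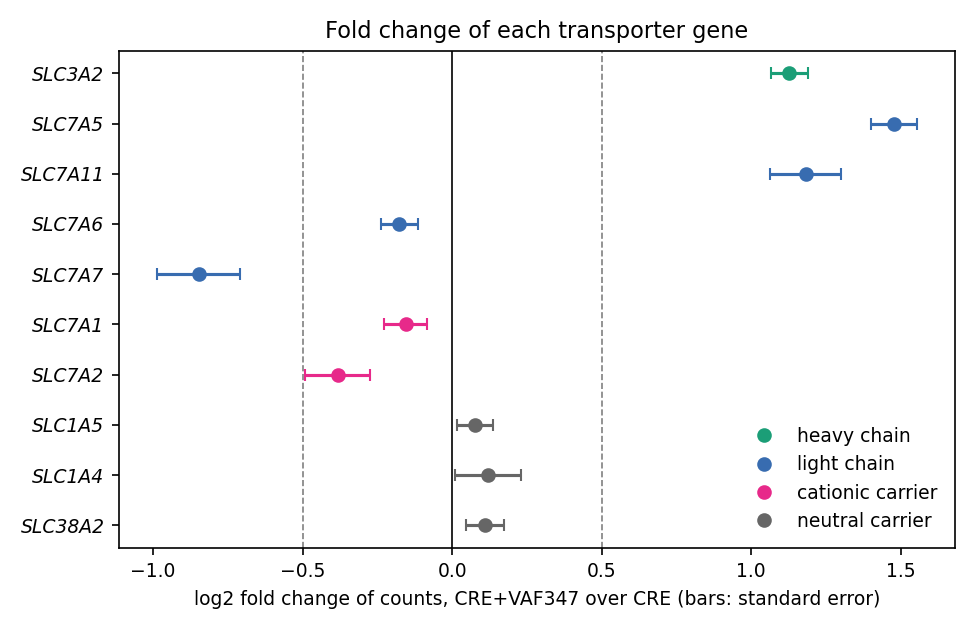
Log2 fold change of estimated counts, CRE + VAF347 over CRE, for each of the 10 transporter genes (horizontal axis), with its standard error as a bar, 3 libraries per group, coloured by role; dashed lines mark 0.5 in each direction. SLC7A5, SLC7A11 and SLC3A2 lie between 1.13 and 1.48, SLC7A7 lies at -0.85, and the other 6 lie between the dashed lines.

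*SLC3A2* (ENSG00000168003, chromosome 11, 62856004 to 62888880, plus strand, GRCh38) encodes the heavy chain shared by the light chains. Its level was 256.3, 274.3 and 247.1 CPM in CRE replicates 1 to 3. It was 552.1, 577.8 and 568.6 CPM in CRE + VAF347 replicates 1 to 3. Every CRE + VAF347 library was above every CRE library, and the replicates of each group lay close together. The mean went from 259.3 ± 13.8 to 566.2 ± 13.0 CPM (SD, n = 3), a log2 fold change of 1.13 ± 0.06 (SE), the 43rd highest of all genes tested. On the length-scaled TPM values, where levels of different genes can be compared, *SLC3A2* was at 224.2, 253.0 and 234.2 TPM with CRE and at 442.6, 559.8 and 591.4 TPM with CRE + VAF347. The groups were again separate, but the SD of the treated group was 78.4 TPM, as replicate 1 lay below the other two.

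*SLC7A5* (ENSG00000103257, chromosome 16, 87830023 to 87869507, minus strand) encodes LAT1, the light chain for large neutral amino acids. Its level was 464.2, 475.8 and 559.1 CPM in the CRE replicates. In the CRE + VAF347 replicates it was 1349, 1392 and 1433 CPM. The groups were separated by more than the whole range of either, and CRE replicate 3 was the highest of its group. The mean went from 499.7 ± 51.8 to 1391 ± 41.8 CPM (SD, n = 3), a log2 fold change of 1.48 ± 0.08 (SE), the 23rd highest of all genes tested and the highest of the 10 transporters. By mean TPM the gene ranked 1147 among all genes with CRE and 345 with CRE + VAF347. Its pseudogenes *SLC7A5P1* and *SLC7A5P2* were at 0 counts in all 6 libraries.

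The sequences before the starts of *SLC7A5* and *SLC3A2* are shown because these were the most abundant of the genes that were higher. Promoter windows from RefSeq on GRCh38.p14, from 250 bases before each annotated start to 50 after it, were searched on both strands. The motifs were the AhR core GCGTG, the antioxidant response element TGACNNNGC, the amino acid response element TGATGNAAN and the E-box CACGTG. In the windows of the transporters no match overlapped another. From the table of windows, 8 of the 10 genes were searched. *SLC7A11* and *SLC7A2* were not searched, so nothing is said of their promoters. The sequence before the only *SLC7A5* start, on the minus strand and outside any annotated exon, holds an AhR core on the opposite strand, read as CACGC at position -173 from the start, and an E-box at position -130, both in capitals.
SLC7A5, chr16:87869508-87869757, minus strand: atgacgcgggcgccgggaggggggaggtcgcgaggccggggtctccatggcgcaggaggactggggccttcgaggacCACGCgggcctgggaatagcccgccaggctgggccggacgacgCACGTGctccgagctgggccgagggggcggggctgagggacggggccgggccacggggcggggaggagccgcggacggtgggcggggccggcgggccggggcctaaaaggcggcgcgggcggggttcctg
A TGACNNNGC match, TGACGCAGC, began at position -2 of *SLC7A5* and crossed the start, so it is not in capitals there.

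*SLC3A2* has 3 starts in the table. The windows of all 3 overlap annotated exons, so only the bases around each match before the start are shown, with the match in capitals. The first start had AhR cores at -145 and -19, the second had one at -125, and the third had the antioxidant motif at -37.
SLC3A2 start 1, chr11:62855954-62855978, plus strand: acggcgagcgCACGCgcatacgttg
SLC3A2 start 1, chr11:62856080-62856104, plus strand: tcctacgggaGCGTGctggctcacc
SLC3A2 start 2, chr11:62880761-62880785, plus strand: actgtcggagGCGTGttcctgactt
SLC3A2 start 3, chr11:62881652-62881680, plus strand: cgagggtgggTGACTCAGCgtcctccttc
The third *SLC3A2* start also had an amino acid response element on the opposite strand at position 36. For contrast, the only matches of *SLC7A7*, which was lower with VAF347, were an antioxidant motif at position -88 of its first start and an E-box at position -225 of its second.
SLC7A7 start 1, chr14:22819861-22819889, minus strand: cctctgggtcTGACCAGGCagtcccagct
SLC7A7 start 2, chr14:22816081-22816106, minus strand: aatgaaaaggCACGTGggtctggtgg
The AhR core was present in at least 1 window of 6 of the 8 genes matched, namely *SLC3A2*, *SLC7A5*, *SLC7A6*, *SLC7A1*, *SLC1A5* and *SLC1A4*, and in 40.6% of all genes in the table. It was therefore held both by genes that were higher and by genes with small differences. The antioxidant motif was in 6 of the 8, against 16.1% of all genes, the amino acid response element in 4, against 4.45%, and the E-box in 3, against 8.79%. By window, 36.6%, 13.4%, 3.61% and 7.27% of all windows held these motifs in the order given. *SLC3A2*, *SLC7A7* and *SLC1A5* had 3 windows each and *SLC1A4* had 2, where the whole table had 34961 windows for 27195 genes. A gene with more windows has more chances of a match, so the shares per gene are not like for like. The window of *SLC38A2* held none of the motifs. A match describes the letters only.

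*SLC7A11* (ENSG00000151012, chromosome 4, 138164097 to 138242349, minus strand) encodes xCT, the light chain of the cystine-glutamate exchanger. It was measured with few fragments, 68, 72 and 89 counts per library with CRE alone and 146, 157 and 181 with CRE + VAF347. The lowest treated library had more counts than the highest CRE library although it was the smallest library of all. Its level was 7.47 ± 0.731 CPM with CRE and 17.0 ± 0.927 CPM in the treated group (SD, n = 3), a log2 fold change of 1.18 ± 0.12 (SE), the 35th highest. The fold change was thus similar in size to that of *SLC3A2*, at a level lower by far. *SLC7A11* was the least abundant of the 10 genes with CRE, at 2.33 ± 0.502 TPM, and second lowest with CRE + VAF347, at 4.87 ± 0.256 TPM.

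*SLC7A6* and *SLC7A7* encode the y+L light chains, which exchange cationic amino acids such as arginine and lysine for neutral ones. *SLC7A7* (ENSG00000155465, chromosome 14, 22773222 to 22829820, minus strand) was at 13.2, 12.3 and 14.5 CPM with CRE and at 8.43, 6.20 and 7.58 CPM with CRE + VAF347. All treated libraries were below all CRE libraries. The mean went from 13.3 ± 1.12 to 7.40 ± 1.12 CPM (SD, n = 3), a log2 fold change of -0.85 ± 0.14 (SE), on 125 to 155 counts per CRE library and 59 to 76 per treated library. *SLC7A7* was thus lower where *SLC7A5* was higher. Over the same libraries the endothelial genes *CDH5* and *VWF* fell, by log2 fold changes of -0.84 and -1.45 (edgeR adjusted p = 0.00119 and 0.0107). The macrophage gene *CD68* had a log2 fold change of -0.43 (edgeR adjusted p = 0.0912). *CD68*, at means of 23.2 and 17.4 TPM, made up most of the immune marker sum. The other endothelial and immune markers were near the floor, *PECAM1*, *PTPRC* and *CD3E* at most 3 counts and *LYZ* at 2 to 5 in every library. The part of the *CDH5*, *VWF* and *CD68* shifts in the *SLC7A7* values was not tested. *SLC7A6* (ENSG00000103064, chromosome 16, 68264516 to 68301823, plus strand) was at 86.1, 85.7 and 81.5 CPM with CRE and at 74.7, 77.5 and 71.9 CPM with CRE + VAF347. Its groups were separate in CPM, with a log2 fold change of -0.18 ± 0.06 (SE), but they overlapped in TPM, at 36.7 ± 4.96 and 28.8 ± 5.23 TPM (SD, n = 3). *SLC7A6* overlaps the protein-coding gene *SLC7A6OS* on the other strand, which had 508 to 667 counts, and use of strand in counting is not stated, so the values of *SLC7A6* are less certain.

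These 4 light chains all pair with *SLC3A2*, so the heavy chain was set against the summed TPM of *SLC7A5*, *SLC7A6*, *SLC7A7* and *SLC7A11*. That sum was 177.8, 188.4 and 249.4 TPM with CRE and 434.6, 450.8 and 480.9 TPM with CRE + VAF347. The ratio of *SLC3A2* to it was 1.26, 1.34 and 0.939 with CRE and 1.02, 1.24 and 1.23 with CRE + VAF347. The ranges overlapped, with means of 1.18 ± 0.214 and 1.16 ± 0.126 (SD, n = 3), but the overlap rested on CRE replicate 3. Without it both CRE ratios were above all treated ratios, with a CRE mean of 1.30, and the ratios of counts, 0.449 and 0.472 in CRE replicates 1 and 2 against 0.372 to 0.387 in the treated libraries, were separate too. With *SLC7A8*, a further partner of *SLC3A2* outside the 10 genes at 3.05 to 3.93 TPM, added to the sum, the mean ratios were 1.16 ± 0.208 and 1.15 ± 0.125. Within the light chains the shares were different. *SLC7A5* made up 73.5%, 71.8% and 76.0% of the light chain TPM with CRE and 91.5%, 90.7% and 90.2% with CRE + VAF347. The treated libraries were all higher, and the mean share went from 73.7% ± 2.11 to 90.8% ± 0.645 (SD, n = 3).

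**Figure D2:**
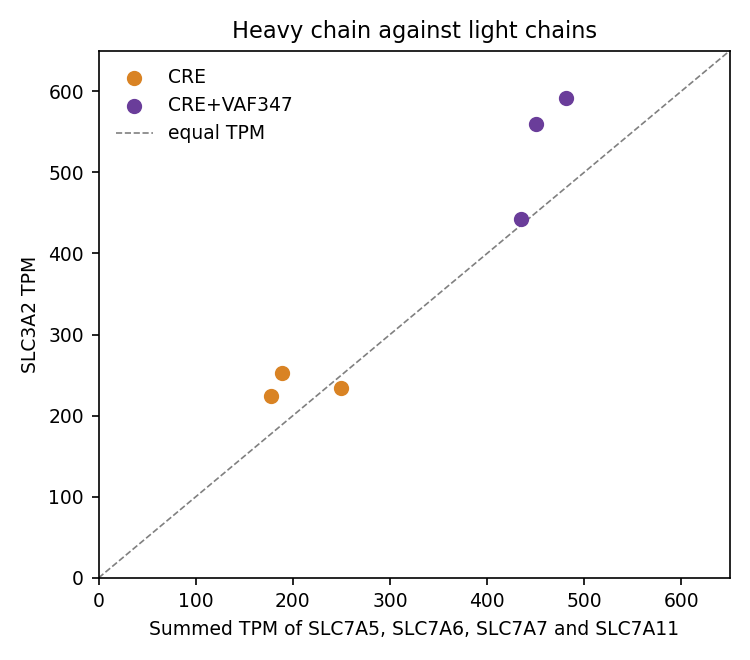
SLC3A2 TPM (vertical axis) against the summed TPM of the light chains SLC7A5, SLC7A6, SLC7A7 and SLC7A11 (horizontal axis), 1 point per library, with a dashed line of equal TPM. The CRE libraries lie at sums of 177.8 to 249.4 and the CRE + VAF347 libraries at 434.6 to 480.9, and both groups lie near the line, with CRE replicate 3 below it.

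*SLC7A1* and *SLC7A2* are the cationic carriers of the SLC7 family, which take up arginine, lysine and ornithine without a heavy chain. *SLC7A1* (ENSG00000139514, chromosome 13, 29509414 to 29595688, minus strand) was at 166.3, 171.8 and 198.3 CPM with CRE and at 162.0, 158.4 and 161.5 CPM with CRE + VAF347. The log2 fold change was -0.15 ± 0.07 (SE), and -0.07 without CRE replicate 3, the library that was highest. In TPM the groups overlapped, at 39.0 ± 7.43 and 34.4 ± 0.696 (SD, n = 3). *SLC7A2* (ENSG00000003989, chromosome 8, 17497088 to 17570573, plus strand) was at 16.1, 16.1 and 16.5 CPM with CRE and at 12.1, 13.8 and 11.4 CPM with CRE + VAF347. The groups were separate in CPM and in TPM, and the log2 fold change was -0.38 ± 0.11 (SE), short of the fold threshold. Neither arginine carrier was therefore raised in parallel with *SLC7A5*.

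The neutral carriers showed small differences. *SLC1A5* (ENSG00000105281, chromosome 19, 46774883 to 46788594, minus strand) encodes ASCT2, a sodium-dependent exchanger that takes up glutamine. Its level was 190.5, 191.1 and 204.3 CPM with CRE and 208.1, 198.1 and 211.9 CPM with CRE + VAF347. The log2 fold change, 0.08 ± 0.06 (SE) on counts, was -0.01 when fitted on TPM. The groups overlapped, and *SLC1A5* overlaps a lncRNA on the other strand, ENSG00000275719, at 304 to 429 counts, so its values are less certain. *SLC38A2* (ENSG00000134294, chromosome 12, 46358188 to 46372773, minus strand), the sodium-coupled carrier SNAT2 that is known to be induced by amino acid starvation, was at 396.3, 359.9 and 372.7 CPM with CRE and 422.9, 388.8 and 406.4 CPM with CRE + VAF347. The groups overlapped, with a log2 fold change of 0.11 ± 0.06 (SE) that was 0.03 when fitted on TPM or with the GC offset. *SLC1A4* (ENSG00000115902, chromosome 2, 64988477 to 65023865, plus strand), a carrier of alanine, serine and cysteine, was at 27.3, 33.8 and 38.8 CPM with CRE and 34.9, 36.6 and 37.3 CPM with CRE + VAF347. The CRE libraries spanned the whole treated group, and the log2 fold change was 0.12 ± 0.11 (SE). Leaving out CRE replicate 1 gave 0.00, and leaving out CRE replicate 3 gave 0.25.

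Levels of different genes were compared in TPM. With CRE, *SLC3A2* at 237.1 and *SLC38A2* at 230.9 TPM led and overlapped between libraries, followed by *SLC7A5* at 151.8 and *SLC1A5* at 122.8 TPM, which also overlapped. *SLC7A1* at 39.0 and *SLC7A6* at 36.7 TPM came next and overlapped, as did *SLC7A7* at 14.4 and *SLC1A4* at 11.8 TPM. *SLC7A2* at 5.09 and *SLC7A11* at 2.33 TPM were last and did not overlap. With CRE + VAF347 no neighbours in the order overlapped. *SLC3A2* at 531.3 and *SLC7A5* at 413.5 TPM were then above *SLC38A2* at 234.7 and *SLC1A5* at 120.5 TPM. *SLC7A1* at 34.4, *SLC7A6* at 28.8, *SLC1A4* at 12.2, *SLC7A7* at 8.35, *SLC7A11* at 4.87 and *SLC7A2* at 3.71 TPM followed. *SLC7A5* had thus moved above *SLC38A2*, *SLC1A4* above *SLC7A7*, and *SLC7A11* above *SLC7A2*. The ratio of *SLC7A5* to *SLC1A5*, the carriers often described as coupled through glutamine, was 1.24 ± 0.0344 with CRE and 3.44 ± 0.215 with CRE + VAF347 (SD, n = 3). *SLC7A5* and *SLC3A2* together made up 45.8% ± 1.88 of the TPM of the 10 genes with CRE and 67.8% ± 1.52 with CRE + VAF347. The 10 genes held 0.165% ± 0.00749 and 0.290% ± 0.00566 of the counts of a library.

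**Figure D3:**
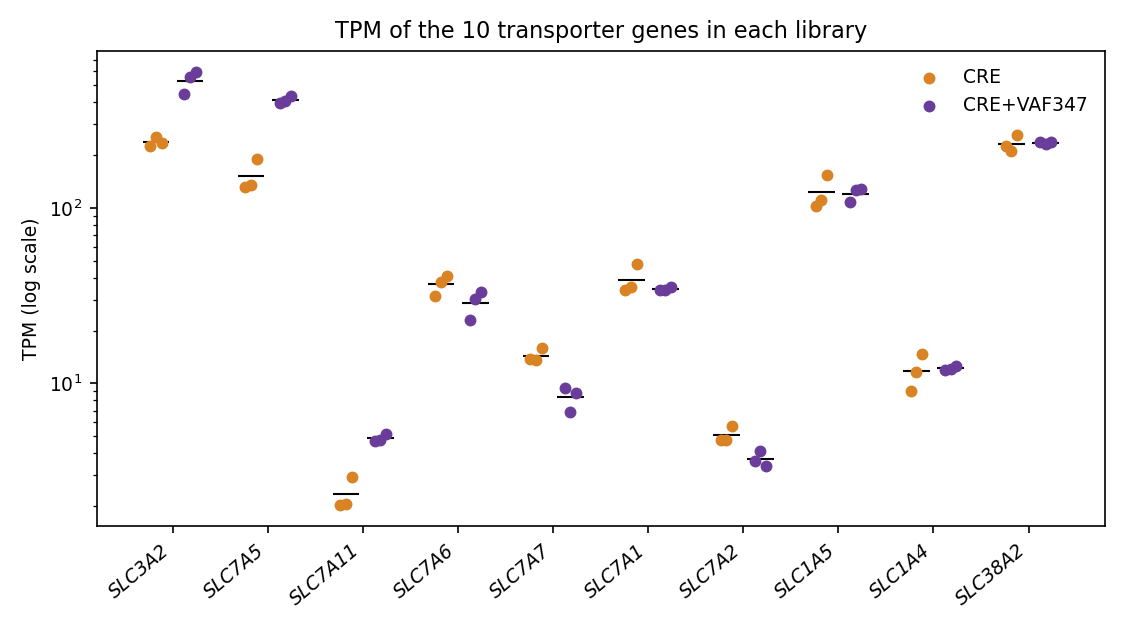
TPM of each transporter gene on a log axis (vertical), with 1 point per library, 3 CRE and 3 CRE + VAF347, and a line at each group's mean. SLC3A2, SLC7A5 and SLC7A11 are higher in every treated library, SLC7A7 and SLC7A2 are lower in every treated library, and the groups of the other 5 genes overlap.

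The genes whose levels followed *SLC7A5* most closely, by the root mean square difference of mean-centred log2 CPM over the 6 libraries among 11085 genes, were *ALDH1A3-AS1* (0.125), *ALDH1A3* (0.152) and *ACOXL* (0.157). *ALDH1A3* encodes a retinaldehyde dehydrogenase, was at 205.2 ± 14.3 CPM with CRE and 685.6 ± 39.7 CPM with CRE + VAF347 (SD, n = 3), and lies in a locus with *ALDH1A3-AS1*. Those nearest to *SLC7A7* were *OSR2* (0.059), *STEAP3* (0.085) and *MGAT3* (0.089). *OSR2*, a transcription factor, was at 83.1 ± 7.15 and 45.7 ± 4.82 CPM. These are descriptions of likeness over 6 libraries of the same 2 treatments.

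The other genes of amino acid supply were examined in 8 lists of 138 genes, of which 112 passed the filter on low counts and were tested in the same edgeR fit. Of the 112, 1 was higher and 4 were lower, and their median log2 fold change was -0.02 against 0.01 for all genes tested. At any fold change 2 were higher and 10 lower at the adjusted p of 0.05, and those under the fold threshold are named below after their values were seen. Of 8 other members of the SLC7 and SLC3 families, the light chain *SLC7A8* (LAT2) was the only one tested, at 9.46 ± 0.546 and 9.42 ± 1.26 CPM (SD, n = 3), with a log2 fold change of -0.00 ± 0.14 (SE, edgeR adjusted p = 0.994). The other system L partner was therefore expressed at a low level and showed no detectable difference at this depth. Of 15 other carriers tested, 0 were higher and 2 were lower, with 3 higher at an unadjusted p under 0.05 and 0 called higher by DESeq2. *SLC1A6*, a glutamate carrier, was at 42.5 ± 4.07 and 25.6 ± 2.28 CPM, a log2 fold change of -0.74 ± 0.10 (edgeR adjusted p = 0.00136). *SLC6A9*, the glycine carrier GLYT1, was at 11.6 ± 1.07 and 6.86 ± 0.574 CPM, a log2 fold change of -0.76 ± 0.13 (edgeR adjusted p = 0.00748). *SLC1A3*, another glutamate carrier, had a log2 fold change of -0.38 ± 0.07 (edgeR adjusted p = 0.00741) below the fold threshold.

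Cystine taken up through *SLC7A11* feeds glutathione synthesis and the thioredoxin system. Of 11 genes tested for these steps, 1 was higher and 0 were lower, with 1 lower at an unadjusted p under 0.05 in edgeR and 0 called lower by DESeq2. The gene that rose was *TXNRD1*, thioredoxin reductase, which had 2836, 2700 and 3065 counts in the CRE replicates. The treated replicates had 3700, 3956 and 4274 counts, for a log2 fold change of 0.57 ± 0.06 (SE, edgeR adjusted p = 0.000427), higher in 3 of 3 treated libraries than in any CRE library. Fitted with limma on log2 TPM, *TXNRD1* had log2 fold changes of 0.475 to 0.478 and passed neither threshold (limma adjusted p = 0.0943 to 0.243). The catalytic subunit of glutathione synthesis, *GCLC*, was at 49.7 ± 4.12 and 61.6 ± 1.29 CPM, a log2 fold change of 0.31 ± 0.07 (edgeR adjusted p = 0.0349) below the fold threshold.

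The starvation response, in which *ATF4* is known to raise many transporter genes, was examined through its regulators. Of 10 tested, edgeR called 0 in either direction, with 2 at an unadjusted p under 0.05, and DESeq2 called 0. *ATF4* itself was at 252.3 ± 10.5 and 243.9 ± 6.53 CPM (SD, n = 3), a log2 fold change of -0.05 ± 0.06 (SE, edgeR adjusted p = 0.686). *EIF2S1*, the translation factor subunit that is phosphorylated in this response, had a log2 fold change of 0.19 ± 0.09 (edgeR adjusted p = 0.264). Protein levels and phosphorylation were not measured in these libraries. Of 15 amino acid synthesis enzymes, 0 were higher, with 2 higher at an unadjusted p under 0.05 and 0 called higher by DESeq2, and 2 were lower. *ASS1*, argininosuccinate synthase of the arginine pathway, fell from 65.7 ± 4.54 to 36.6 ± 2.49 CPM, a log2 fold change of -0.84 ± 0.08 (edgeR adjusted p = 0.000184). *PYCR1*, of proline synthesis, fell from 58.1 ± 2.92 to 39.7 ± 5.25 CPM, a log2 fold change of -0.55 ± 0.09 (edgeR adjusted p = 0.00599). Without CRE+VAF347 replicate 2 the *PYCR1* value was -0.50 ± 0.10, just short of the fold threshold (edgeR adjusted p = 0.0443). *GLUL*, glutamine synthetase, had a log2 fold change of -0.46 ± 0.07 (edgeR adjusted p = 0.00253) below that threshold.

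Leucine brought in by *SLC7A5* is sensed upstream of mTORC1, is charged to tRNA, or is broken down. Of 29 genes of amino acid sensing by mTORC1, edgeR called 0, with 1 at an unadjusted p under 0.05, and DESeq2 called 0. That gene was *MLST8*, an mTORC1 subunit, at 48.1 ± 0.641 and 37.7 ± 0.566 CPM (SD, n = 3), a log2 fold change of -0.35 ± 0.07 (SE, edgeR adjusted p = 0.0107) below the fold threshold. *LAMTOR5* and *LAMTOR4*, subunits of the Ragulator complex and the most abundant by TPM, had log2 fold changes of 0.23 ± 0.14 and 0.24 ± 0.16 (edgeR adjusted p = 0.384 and 0.421). Of 20 cytosolic aminoacyl-tRNA synthetases edgeR called 0, with 3 at an unadjusted p under 0.05, and DESeq2 called 0. *VARS1*, for valine, had a log2 fold change of -0.30 ± 0.07 (edgeR adjusted p = 0.0261) below the fold threshold. The most abundant by TPM, *RARS1* and *WARS1*, had log2 fold changes of 0.17 ± 0.07 and -0.12 ± 0.06 (edgeR adjusted p = 0.208 and 0.276). Of 11 genes of branched-chain amino acid breakdown edgeR called 0, with 6 at an unadjusted p under 0.05, and DESeq2 called 0. *DLD* had a log2 fold change of 0.17 ± 0.07 (edgeR adjusted p = 0.192), and *BCAT1*, the cytosolic transaminase of leucine, went from 400.9 ± 8.52 to 312.2 ± 32.4 CPM, a log2 fold change of -0.36 ± 0.08 (edgeR adjusted p = 0.0203) below the fold threshold. *BCKDK*, the kinase of the branched-chain ketoacid dehydrogenase, had a log2 fold change of -0.28 ± 0.06 (edgeR adjusted p = 0.0245), also below it.

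**Figure D4:**
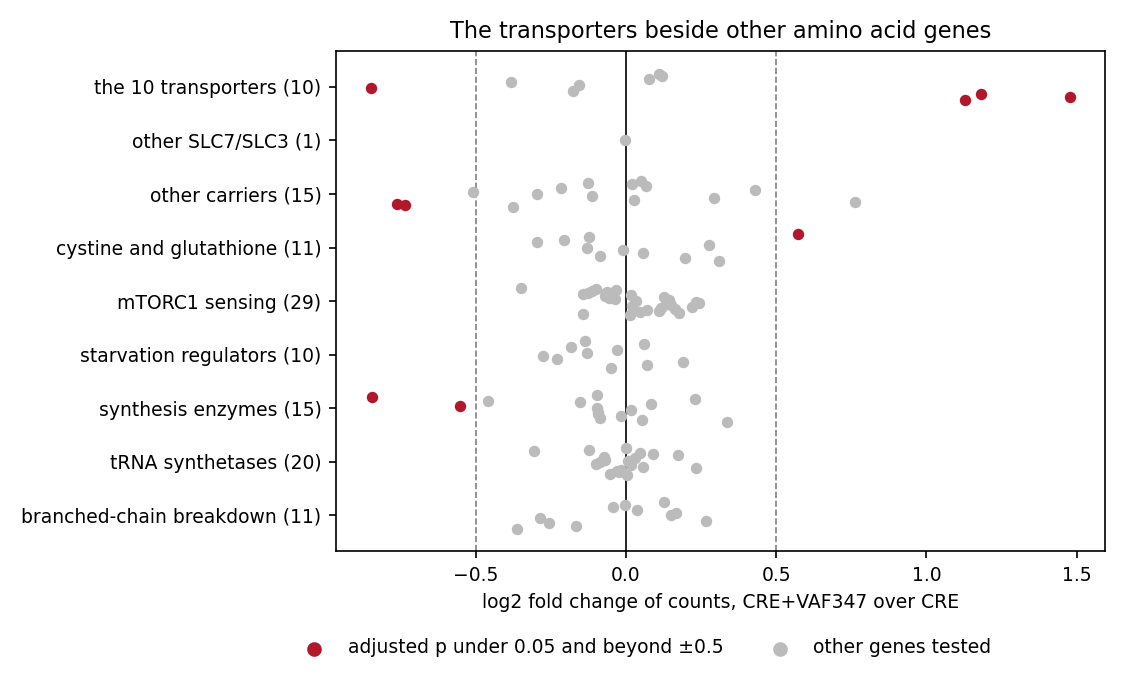
Log2 fold change of counts, CRE + VAF347 over CRE (horizontal axis), for the 10 transporters and the genes tested in each of 8 lists (rows, number tested in parentheses), 1 point per gene. Red points passed an adjusted p of 0.05 with an absolute log2 fold change over 0.5, and dashed lines mark 0.5 in each direction. Of the 112 list genes 5 are red, between -0.84 and 0.57, whereas SLC3A2, SLC7A11 and SLC7A5 lie at 1.13 to 1.48.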

How the data were processed

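Poly(A)-enriched RNA of HBECs was sequenced as 150 bp read pairs. The authors made the expected counts (estimated fragments per gene) with Salmon on hg38, and deposited them without scaling for depth. TPM values, also deposited, are scaled for length and depth, and sum to 1000000 in each library. The Salmon version, annotation and use of strand are not given in the sources used here. A further table of the authors' own comparison (log2 fold changes, p-values, a mean signal and a score), also deposited, was not used. Columns were matched to samples by the labels, with 0 columns left unmatched.

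All 61228 gene names were found in GENCODE v44, which gave positions on GRCh38. Counts were rounded, since 14.5% of them had fractions. The edgeR 4.0.16 fit in R 4.3.3 used filterByExpr, TMM scaling and quasi-likelihood tests. The p-values of 15373 genes were adjusted by Benjamini-Hochberg. Standard errors are log2 fold changes divided by the square root of F. CPM used TMM-scaled library sizes. Alternatives used DESeq2 1.42.0, limma 3.58.1 on log2(TPM + 1) or log2(TPM + 0.1), other filters, the replicate block, and leaving out each library. Offsets for GC content and for transcript length, and a ratio that includes *SLC7A8*, were added after the data were seen.

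The transporters and gene lists were chosen with earlier results of these data known. Genes named from the lists were those past both thresholds, or otherwise the 2 most abundant by TPM. For *SLC7A5* and *SLC7A7* the 3 nearest genes with a mean log2 CPM over 3 were named. On simulated counts with 200 changed genes, edgeR recovered 197 over 15336 genes, with 16 other calls, DESeq2 recovered 196 over 27001 genes, with 18, and limma recovered 184 over 15971 genes, with 14. The changed genes were drawn above a count floor, with changes of 2-fold or 3-fold. Every gene had the same dispersion, no library stood apart, and calls used the adjusted p alone. The recovery of smaller changes or of genes with few counts is therefore not shown. Depth was 8873160 to 10750283 counts per library. With 3 libraries per group, single-gene tests rest on the spread pooled over genes.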

Additional observations from a re-analysis of the deposited data

How the results depend on the processing

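Over 16 refits, 143 of 160 log2 fold changes of the 10 transporters stayed within the replicate SD of the value reported, 17 moved by more, and 0 of the called genes changed sign. As a description, since this contrast chose the genes, *SLC3A2* ranged from 1.09 to 1.19, *SLC7A5* from 1.43 to 1.57, *SLC7A11* from 0.82 to 1.27 and *SLC7A7* from -0.95 to -0.73. Fits with limma used log2(TPM + 1), log2(TPM + 0.1) and log2(TPM + 1) without a filter. In each of them the transporters called higher numbered 2 in place of 3, without *SLC7A11*, and those called lower 0. The pathway genes called higher numbered 0 in each (2 in each at an unadjusted p under 0.05). The pathway genes called lower numbered 1, 1 and 0 (13, 13 and 12 at an unadjusted p under 0.05). Over all genes these fits called 34, 32 and 20 higher and 50, 52 and 12 lower. The cause was not tested. Without the filter on low counts 187 genes were higher and 411 lower, and 2 pathway genes were higher. At any fold change 207 were higher and 626 lower, with 2 and 10 pathway genes. With the transcript length offset 158 genes were lower. Leaving out a library gave 143 to 270 genes lower, the lowest without CRE+VAF347 replicate 3, and 58 to 110 higher, the highest without CRE replicate 3. The replicate block gave 78 genes higher and 241 lower and left the counts of transporters and pathway genes called at their values. The pathway genes called lower numbered 3 in place of 4 without CRE+VAF347 replicate 2 and with the GC offset, where *PYCR1*, at -0.50 and -0.48, no longer passed the fold threshold. Same-numbered libraries deviated together with r of only 0.0154 to 0.0529, so they share a number and were not treated as pairs. On estimated counts in place of TPM, the ratio of *SLC3A2* to the light chains was 0.431 with CRE and 0.380 with CRE + VAF347. Depth limits *SLC7A11*, *SLC7A7* and *SLC7A2* most.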
